A study of Sus scrofa with 9 samples.

Results

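*GSS*, *CTH* and *TXNIP* are 3 genes of thiol redox metabolism, and they were followed here across hatched blastocysts (HB) of the pig that had been produced in 3 ways. They were taken by gene symbol from the 7495 genes with a name on the array, and each is measured by 1 probe. The 3 genes had been selected on their measured differences between the groups in an earlier analysis of the same arrays, so all their differences between groups are given below as a description and without a test.

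Glutathione is the main small thiol of the cell and of the oocyte and early embryo, where it keeps proteins reduced and feeds the enzymes that remove peroxides. It is built from glutamate, cysteine and glycine in a pair of steps, and glutathione synthetase, the product of *GSS*, catalyses the final one by adding glycine to gamma-glutamylcysteine. Cystathionine gamma-lyase, the product of *CTH*, cleaves cystathionine at the end of the transsulfuration route, which makes cysteine from methionine, and it can also release hydrogen sulfide. Thioredoxin-interacting protein, the product of *TXNIP*, binds reduced thioredoxin and blocks its activity, and it also promotes the withdrawal of glucose transporters from the cell surface. Transcription of *TXNIP* is known to rise with glucose supply in human and rodent cells.

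Each of the 9 two-colour arrays compared 1 pool of 5 embryos, labelled with Cy5, with a common reference labelled with Cy3. The reference was a pool of porcine oocytes and preimplantation embryos of many stages, from the germinal vesicle to day 11. The in vivo group (IVV HB) came from inseminated gilts and was collected at 5.5 days after insemination. The parthenogenetic group (PA HB) came from oocytes activated without sperm by ionomycin followed by 6-DMAP. The chromatin transfer group (CT HB), made by a form of somatic cell nuclear transfer whose donor cell type the labels do not give, was activated in the same way. PA HB and CT HB were both grown in vitro, and their labels place collection at 7 hpf, in hours, which goes against the blastocyst stage and the culture of several days in the methods. There were 3 arrays per group, the dyes were not swapped, and the effects of origin, culture and embryo age cannot be told apart between IVV HB and the other groups. The paper calls the 3 arrays of a group biological replicates, but nothing states that their pools came from separate collections.

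Every value below is the log2 of the ratio between an embryo pool and the reference, so that 0 is the level in the reference and a difference of 1 is a 2-fold change. Because levels are relative to the reference, the 3 genes are not ranked against each other. In pools of whole embryos, fewer cells of a type and less RNA per cell cannot be told apart. The number of arrays limits the precision, and no spot intensity was used here. Array medians lay between -0.11 and -0.03, and the interquartile range of all ratios was 0.549 to 0.670 on IVV HB arrays, 0.581 to 0.663 on CT HB arrays and 0.853 to 1.03 on PA HB arrays. The 10 measured trophectoderm markers of 14 listed had array medians of 0.23 to 0.67. Only 3 of 10 markers of the inner cell mass and hypoblast were measured, with array medians of 0.03 to 1.38. Array medians of 5 fibroblast markers were between -1.15 and -0.15, those of 5 leukocyte markers between -0.24 and 0.40, and those of 3 uterine markers between -0.32 and 0.09. Of 12 oocyte markers the array medians were -3.17 to -2.45 in IVV HB, -2.22 to -1.43 in PA HB and -3.13 to -2.73 in CT HB.

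*GSS* was near the reference level in IVV HB and above it in both groups grown in vitro. The IVV HB arrays read -0.03, 0.29 and 0.23, with a mean of 0.16 ± 0.17 (SD, n = 3). The PA HB arrays read 1.61, 1.06 and 1.06, with a mean of 1.24 ± 0.31. The CT HB arrays read 1.59, 1.93 and 2.09, with a mean of 1.87 ± 0.26. All 6 arrays of PA HB and CT HB therefore lay above the 3 IVV HB arrays, while PA HB and CT HB overlapped, because the highest PA HB array just exceeded the lowest CT HB array. The difference on the log2 scale was 1.08 for PA HB minus IVV HB (SE 0.21, 2.11-fold) and 1.71 for CT HB minus IVV HB (3.26-fold). CT HB exceeded PA HB by 0.63, or 1.54-fold.

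*TXNIP* had the same order of groups. Its ratios were -0.46, -0.26 and -0.02 in IVV HB, slightly below the reference, with a mean of -0.25 ± 0.22 (SD, n = 3). They were 1.59, 0.90 and 0.69 in PA HB, with a mean of 1.06 ± 0.47. In CT HB they were 1.42, 2.05 and 2.13, with a mean of 1.87 ± 0.39. Again every PA HB and CT HB array was above every IVV HB array, and PA HB and CT HB overlapped through array 1 of each. The log2 differences were 1.31 for PA HB minus IVV HB (SE 0.26, 2.47-fold), 2.12 for CT HB minus IVV HB (4.33-fold) and 0.81 for CT HB minus PA HB (1.75-fold).

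*CTH* followed another order, in which PA HB stood apart at the low end. The IVV HB arrays read 1.42, -0.58 and -1.09 and thus spanned both sides of the reference level, with a mean of -0.08 ± 1.33 (SD, n = 3). The PA HB arrays read -1.64, -2.29 and -2.39, with a mean of -2.10 ± 0.41, and all lay below the lowest IVV HB array. The CT HB arrays read 1.03, -0.28 and 0.42, with a mean of 0.39 ± 0.65, which is inside the range of IVV HB and above every PA HB array. PA HB was lower than IVV HB by a log2 difference of -2.02 (SE 0.54, 4.06-fold), and CT HB was 2.50 above PA HB (5.64-fold). The difference of 0.47 between CT HB and IVV HB (1.39-fold) was smaller than its SE.

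**Figure D1:**
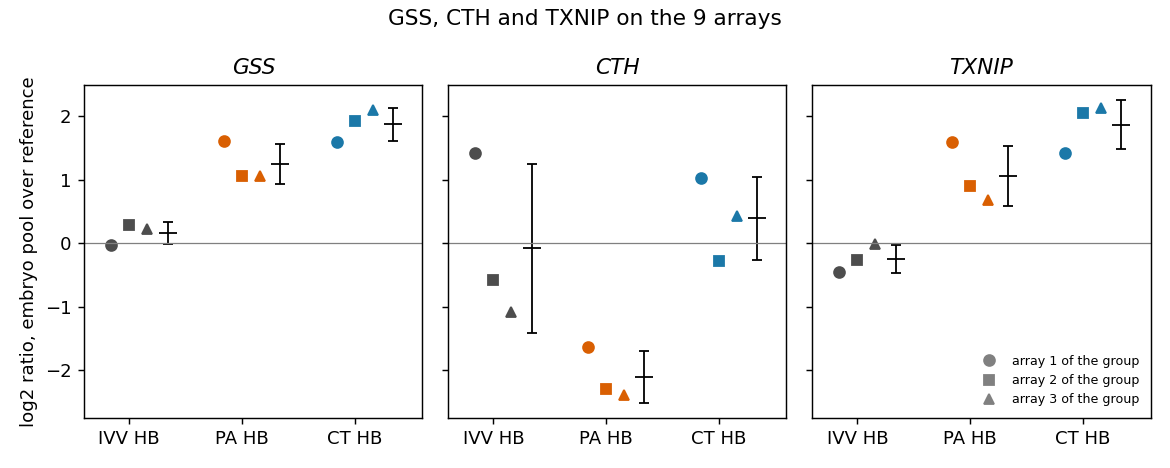
Log2 ratio of embryo pool over reference (vertical axis) for *GSS*, *CTH* and *TXNIP* on each of the 9 arrays, grouped by IVV HB, PA HB and CT HB (horizontal axis). Circles, squares and triangles are arrays 1, 2 and 3 of a group, and the bars beside them give mean ± SD (n = 3). For *GSS* and *TXNIP* all PA HB and CT HB points lie above the IVV HB points, whereas for *CTH* the 3 PA HB points lie below all others.

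Such separation of 3 arrays from 3 was common on these arrays. Over all 7495 genes, every PA HB array was above every IVV HB array for 15.1% of genes and below for 15.7%. The same shares were 9.79% and 9.37% for CT HB against IVV HB, and 15% and 16.2% for CT HB against PA HB. Under the rule used for calls, an adjusted p of at most 0.05 in limma and a change of at least 2-fold, 4.34% of genes were higher and 3.38% lower in PA HB than in IVV HB. Calls were fewer in CT HB against IVV HB, where 0.574% were higher and 0.0801% lower, and in CT HB against PA HB 2.95% were higher and 4.83% lower. These shares are background for the 3 genes, and nothing is read from them, since the genes were chosen from these comparisons. The 3 comparisons also share arrays, so that they are not independent of one another.

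The spread within groups differed widely among the 3 genes. The within-group SD of *GSS* was 0.254, close to the median of 0.253 over all genes, and that of *TXNIP* was 0.376. For *CTH* it was 0.885, larger than for 99.7% of genes. Without IVV HB array 1, the highest *CTH* value, the log2 difference between PA HB and IVV HB was -1.27 in place of -2.02, and that between CT HB and IVV HB was 1.22 in place of 0.47. Without IVV HB array 3 these differences were -2.53 and -0.03.

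*GSS* and *TXNIP* moved together from array to array. Pearson's r between them was 0.99 over the 9 arrays and 0.94 after the group means were taken out, and the arrays share a reference, an amplification protocol and the group differences. In PA HB, array 1 was the highest for both genes, and in CT HB array 1 was the lowest for both. *CTH* did not run with either gene, with r of -0.02 to both over all arrays and -0.28 to both within groups.

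*CTH* instead ran opposite to quantities that varied over whole arrays. The mean of *ASAP3*, *IL12A*, *LIPE* and *KAT5*, a set of 4 genes found in an earlier analysis of these arrays to vary together among them, was 0.30, 2.40 and 1.03 in IVV HB, 2.72, 4.03 and 3.73 in PA HB and 0.44, 1.18 and 0.12 in CT HB. Over the 9 arrays, r between *CTH* and this mean was -0.91, which includes the group difference for which *CTH* was chosen, and it was -0.66 after the group means were taken out. For *GSS* and *TXNIP* the same r was -0.07 and -0.10. *CTH* also had r of -0.93 with the array median of the oocyte markers and -0.82 with the interquartile range of the array, for which *GSS* gave -0.06 and 0.19 and *TXNIP* gave -0.09 and 0.17. Both quantities were highest on the PA HB arrays, so these r restate in part the low *CTH* of that group. Within groups r of *CTH* was -0.76 with the oocyte markers and -0.35 with the interquartile range. The part of these quantities in the low *CTH* ratios of PA HB was not tested.

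**Figure D2:**
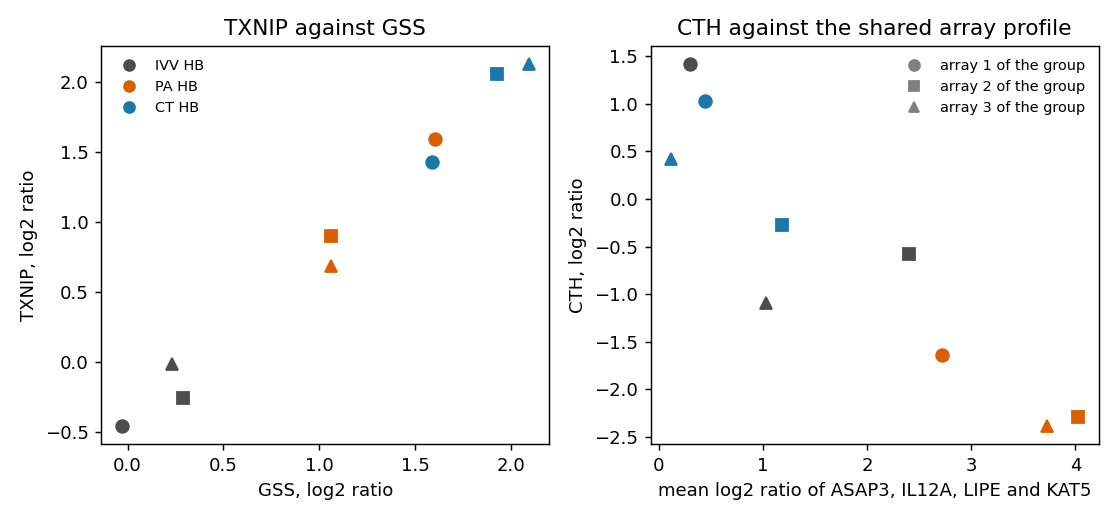
Left, log2 ratio of *TXNIP* (vertical) against that of *GSS* (horizontal) on the 9 arrays, and right, log2 ratio of *CTH* (vertical) against the mean log2 ratio of *ASAP3*, *IL12A*, *LIPE* and *KAT5* (horizontal). Colours mark the groups and shapes the arrays of a group. *TXNIP* rises with *GSS* (r = 0.99) and *CTH* falls as the 4-gene mean rises (r = -0.91), with the 3 PA HB arrays at the far right.

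Scaling between arrays changed the distances between groups for *GSS* and *TXNIP*, but not their order. With quantile normalization, *GSS* exceeded IVV HB by 0.77 in PA HB and by 2.25 in CT HB, and CT HB exceeded PA HB by 1.48. With scale normalization, which gives all arrays an equal spread, the PA HB difference was also 0.77 and CT HB exceeded PA HB by 1.16. *TXNIP* in CT HB exceeded PA HB by 1.59 under quantile and 1.30 under scale normalization. For *CTH* the difference of PA HB from IVV HB was -2.37 and -1.57 under these settings.

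**Figure D3:**
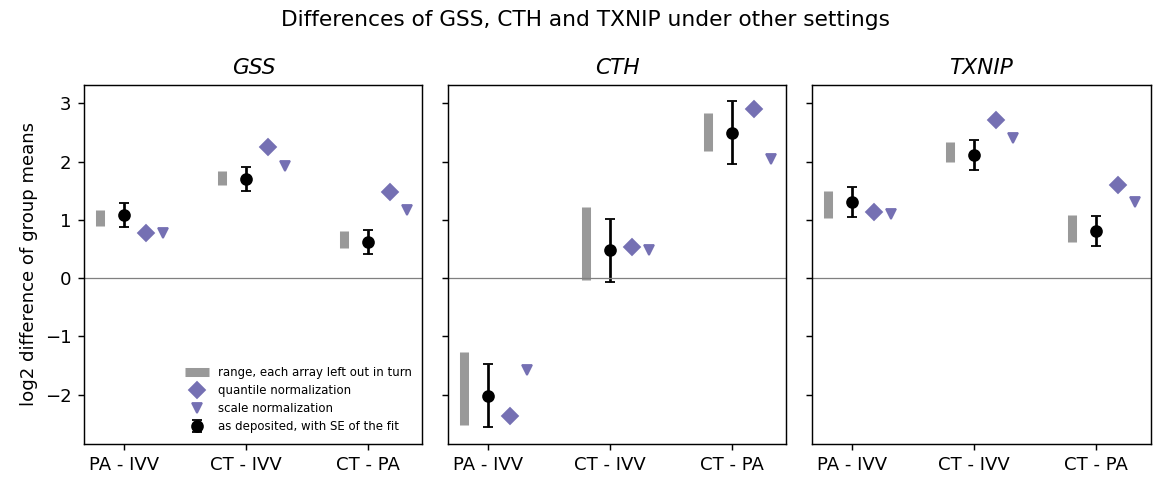
Log2 differences between group means (vertical axis) of *GSS*, *CTH* and *TXNIP* for PA HB minus IVV HB, CT HB minus IVV HB and CT HB minus PA HB. Black points are the deposited values with the SE of the fit, grey bars the range when each array is left out in turn, and diamonds and triangles the values after quantile and scale normalization. The *GSS* difference between CT HB and PA HB is 0.63 as deposited and 1.48 after quantile normalization, and the grey bar of *CTH* for CT HB minus IVV HB reaches from -0.03 to 1.22.

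The genes whose ratios resembled those of the 3 genes most closely were sought among 3035 genes with values spanning at least 1 log2 unit. *GSS* and *TXNIP* had each other as the closest gene. They shared the next ones, *PPT1*, a lysosomal enzyme that removes palmitate from proteins (r = 0.97 with *GSS* and 0.98 with *TXNIP*), *GABARAP*, an autophagosome protein (0.95 and 0.95), and *CRYL1*, a crystallin-related dehydrogenase (0.96 and 0.94). After removal of the group means, r fell to 0.53 and 0.40 for *CRYL1* but was 0.87 and 0.89 for *PPT1*. The remaining places were taken by *HAPLN3*, a hyaluronan link protein, for *GSS* (r = 0.94), and by *INPP5D*, an inositol phosphatase of blood cells, for *TXNIP* (r = 0.93). The ratios of *PPT1* averaged 1.29 ± 0.16 in IVV HB, 2.07 ± 0.31 in PA HB and 2.52 ± 0.42 in CT HB (SD, n = 3), the order of *GSS* and *TXNIP*. That order is largely set by the choice of genes for a high r over the same arrays.

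*CTH* was most like *CRYZ*, a quinone reductase that uses NADPH (r = 0.97), *LRPPRC*, which stabilises mitochondrial messenger RNAs (0.97), *SSB*, the La protein that binds new RNA polymerase III transcripts (0.97), *TPM1*, a tropomyosin (0.95), and *GPAM*, a mitochondrial enzyme of glycerolipid synthesis (0.95). Within groups these r were 0.85 to 0.94. The ratios of *LRPPRC* averaged -1.33 ± 0.71 in IVV HB, -2.39 ± 0.21 in PA HB and -1.04 ± 0.70 in CT HB (SD, n = 3). PA HB was lowest here too, which the choice of *LRPPRC* by its r over the same arrays largely sets, so nothing is read from it.

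The other genes of thiol and peroxide metabolism were read from 11 pathway lists with 157 genes, of which 91 were measured. *GSS*, *CTH* and *TXNIP* are not counted among them. The lists were written with earlier results of these arrays known, so their counts and calls are not independent of those results. In PA HB against IVV HB, 1 list gene was higher and 5 were lower under the call rule, which is 6.59% of the measured list genes beside the 4.34% higher and 3.38% lower over all genes. For CT HB against IVV HB, 0 were higher and 1 was lower, or 1.10%, beside 0.574% and 0.0801% over all genes, with 11 list genes at an unadjusted p below 0.05 in limma. Set against PA HB, CT HB had 5 list genes that were higher and 1 that was lower, again 6.59%, beside 2.95% and 4.83% over all genes. The median log2 difference of the list genes was 0.08, 0.10 and 0.05 in these comparisons, beside 0.01, -0.01 and -0.00 over all genes.

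**Figure D4:**
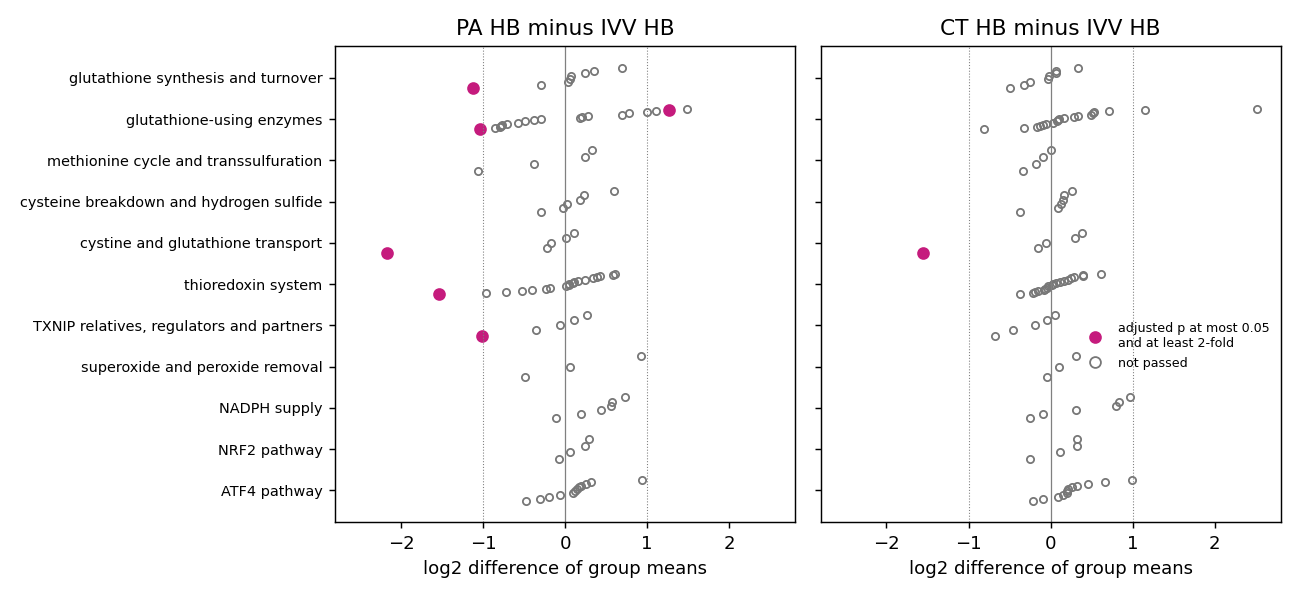
Log2 difference of group means (horizontal axis) of each measured gene of the 11 pathway lists (rows), for PA HB minus IVV HB on the left and CT HB minus IVV HB on the right. Filled points passed an adjusted p of 0.05 and a 2-fold change (dotted lines), open points did not. In PA HB 5 filled points lie to the left of 0 and 1 to the right, and in CT HB there is 1, on the left.

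In glutathione synthesis and turnover, 8 of 13 genes were measured and 1 was called, in PA HB against IVV HB. *GCLM*, the modifier subunit of the ligase that catalyses the step before *GSS*, read 0.74, 0.07 and -0.17 in IVV HB, -0.93, -0.71 and -1.10 in PA HB and -0.04, -0.69 and -0.11 in CT HB. It fell in PA HB against IVV HB by 1.13 on the log2 scale (SE 0.26, adjusted p = 0.017), with all PA HB arrays below all IVV HB arrays, so that *GCLM* and *GSS* differed from IVV HB in opposite directions in PA HB. The call of *GCLM* was lost under quantile and scale normalization and without IVV HB array 1 or PA HB array 3, with adjusted p of up to 0.067. Its difference was -0.49 in CT HB against IVV HB (adjusted p = 0.52). *GGCT*, which breaks down gamma-glutamyl dipeptides, differed by 0.69 in PA HB (adjusted p = 0.051), and *GGT1*, which cleaves glutathione outside the cell, by -0.30 (adjusted p = 0.35). The catalytic subunit *GCLC* was not analysed here.

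In cystine and glutathione transport, 5 of 10 genes were measured. *SLC3A1*, the heavy subunit of a cystine and basic amino acid transporter, read 0.83, 0.60 and 0.57 in IVV HB, -0.82, -1.61 and -2.09 in PA HB and -1.06, -1.02 and -0.57 in CT HB. All 6 arrays of the groups grown in vitro were below all IVV HB arrays. *SLC3A1* fell by 2.17 in PA HB (SE 0.28, adjusted p = 0.0017), a call kept under all 17 alternatives tried for single genes, and by 1.55 in CT HB (SE 0.28, adjusted p = 0.036). The CT HB call was lost when any 1 array of IVV HB or CT HB was left out, with adjusted p of up to 0.13. Its light subunit partner *SLC7A9* differed by -0.17 in PA HB (adjusted p = 0.52) and 0.29 in CT HB (adjusted p = 0.55). The cystine exchanger subunits *SLC7A11* and *SLC3A2* were not analysed here.

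Around *CTH*, none of the 4 measured genes of 13 in the methionine cycle and transsulfuration list was called in any comparison by limma, with 2 at an unadjusted p below 0.05 in PA HB against IVV HB, 0 in CT HB against IVV HB and 2 in CT HB against PA HB. *AHCY*, which splits S-adenosylhomocysteine into homocysteine and adenosine upstream of *CTH*, read 1.04, 0.48 and -0.11 in IVV HB, 0.01, -1.55 and -0.22 in PA HB and 0.57, 0.01 and 0.56 in CT HB. Its difference in PA HB was -1.06 (adjusted p = 0.098), and its arrays overlapped between these groups. *AHCY* was called there with the replicate number as a block (adjusted p = 0.044) and without PA HB array 1 (-1.36, adjusted p = 0.042). The probes of *MTRR*, in the same list, disagreed. In PA HB against IVV HB they differed by 0.26, 1.49 and -0.77, averaging 0.33 (adjusted p = 0.36). In CT HB against PA HB they differed by -0.39, -2.29 and 0.70, averaging -0.66 (adjusted p = 0.074). *CBS*, which makes the substrate of *CTH*, was not analysed here. The 6 measured genes of cysteine breakdown and hydrogen sulfide metabolism held 0 calls in limma, with 0, 0 and 1 at an unadjusted p below 0.05 in the 3 comparisons. Among them *CDO1*, which oxidises cysteine, differed by 0.60 in PA HB (adjusted p = 0.28), but by 1.96 under scale normalization, where it was called (adjusted p = 0.024), as it was in CT HB against PA HB (-2.17, adjusted p = 0.019).

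Of the enzymes that use glutathione, 19 of 35 were measured. In PA HB against IVV HB 1 rose and 1 fell. *GPX1*, the cytosolic glutathione peroxidase, read -0.96, 0.12 and 0.25 in IVV HB, 1.37, 0.63 and 1.18 in PA HB and -0.29, 0.38 and -0.38 in CT HB. Its PA HB arrays were above all others, and it rose by 1.26 against IVV HB (SE 0.33, adjusted p = 0.028). Against PA HB it was lower in CT HB by a log2 difference of -1.16 (adjusted p = 0.038). *GLRX3*, a glutaredoxin that carries iron-sulfur clusters, fell by 1.04 in PA HB (SE 0.31, adjusted p = 0.045), with probe differences of -0.72, -1.01 and -1.39, and was higher in CT HB than in PA HB by 1.12 (adjusted p = 0.033). Both calls of *GPX1* and both of *GLRX3* were lost under quantile and scale normalization and without some single arrays, and that of *GLRX3* in PA HB also after median centring, 10 of 17 alternatives in all, with adjusted p of up to 0.11 and 0.15 for *GPX1* and 0.20 and 0.15 for *GLRX3*.

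Other members of the same list were higher in CT HB than in PA HB. *GLRX*, the cytosolic glutaredoxin that reduces glutathione-bound proteins, read 1.13, 0.43 and -0.21 in IVV HB, 0.75, -1.28 and -0.47 in PA HB and 1.76, 0.94 and 2.11 in CT HB, a difference of 1.94 between CT HB and PA HB (SE 0.49, adjusted p = 0.022). That call was lost without PA HB array 2 or 3 or CT HB array 1 or 3, with adjusted p of up to 0.10. *ESD*, which hydrolyses S-formylglutathione, was higher in CT HB than in PA HB by 1.18 (adjusted p = 0.0067), a call lost only under scale normalization, where the difference was 0.90. In PA HB against IVV HB *ESD* differed by -0.85 (adjusted p = 0.025), *MGST3*, a microsomal glutathione transferase, by -0.77 (adjusted p = 0.025) and *GPX3*, a secreted glutathione peroxidase, by 0.99 (adjusted p = 0.017), all short of 2-fold. *GPX3* passed 2-fold and was called after median centring (1.04, adjusted p = 0.012), quantile (1.11, adjusted p = 0.010) and scale normalization (1.63, adjusted p = 0.0069). The probes of *GPX3* disagreed, with differences of 0.19 and 1.80. *GSR*, which regenerates reduced glutathione, differed by 0.78 in PA HB (adjusted p = 0.055), with probe differences of 0.32 and 1.24, and was called under scale normalization. *GPX6*, an olfactory glutathione peroxidase, had a difference of 2.51 in CT HB against IVV HB (adjusted p = 0.054), and was called after quantile (2.31, adjusted p = 0.035) and scale normalization (3.14, adjusted p = 0.032). Its CT HB ratios were -1.62, -2.26 and 0.17, the highest of them far from the other two.

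In the thioredoxin system, whose activity *TXNIP* restrains, 19 of 24 genes were measured and 1 was called on the deposited values. *PRDX1*, a peroxiredoxin that thioredoxin recharges, read 0.20, 0.08 and -0.94 in IVV HB, -1.49, -2.16 and -1.62 in PA HB and -0.29, -0.66 and 0.37 in CT HB. PA HB was below both other groups on every array. *PRDX1* fell by 1.54 in PA HB against IVV HB (SE 0.33, adjusted p = 0.014) and was 1.56 higher in CT HB than in PA HB (adjusted p = 0.011). The first call was lost under scale normalization and without IVV HB array 1 or PA HB array 2, and the latter under scale normalization and without CT HB array 3, with adjusted p of up to 0.085 and 0.064. *TXNL1*, a thioredoxin-like protein bound to the proteasome, differed by -0.72 in PA HB (adjusted p = 0.028, short of 2-fold). *PRDX6*, another peroxiredoxin, differed by -0.96 in PA HB (adjusted p = 0.082) and by 0.92 between CT HB and PA HB (adjusted p = 0.093). Both differences were called after quantile normalization (-1.33 and 1.51, adjusted p = 0.020 and 0.013), after scale normalization and without PA HB array 1. *TXN*, the cytosolic thioredoxin that *TXNIP* binds, differed by 0.16 in PA HB (adjusted p = 0.76) and 0.61 in CT HB (adjusted p = 0.49). Its reductase *TXNRD1* differed by 0.10 (adjusted p = 0.80) and -0.15 (adjusted p = 0.87). *PRDX3*, which the paper lists as changed in both PA HB and CT HB, differed by 0.39 (adjusted p = 0.14) and 0.16 (adjusted p = 0.79). Its 2 probes disagreed, at 1.13 and -0.36 in PA HB and 0.45 and -0.13 in CT HB. Fitted alone, the first probe had an adjusted p of 0.0089 in PA HB and passed 2-fold.

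Of the relatives, regulators and partners of *TXNIP*, 5 of 13 were measured. *SLC2A1*, the glucose transporter GLUT1, read 0.74, 0.42 and 0.70 in IVV HB, -0.09, -0.34 and -0.73 in PA HB and -0.21, 0.10 and -0.06 in CT HB, with all 6 arrays of PA HB and CT HB below IVV HB. It fell in PA HB by 1.01 (SE 0.20, adjusted p = 0.0088), near the 2-fold limit, and the call was lost after median centring and without IVV HB array 1, IVV HB array 3 or PA HB array 3, where the smallest difference was 0.83 in size. In CT HB its difference was -0.68 (adjusted p = 0.18). *MLXIP* and *MLX*, the paired factors that drive *TXNIP* transcription when glucose is plentiful, differed by 0.10 and -0.07 in PA HB (adjusted p = 0.77 and 0.81) and by 0.06 and -0.04 in CT HB (adjusted p = 0.96 and 0.96). *ITCH*, a ubiquitin ligase of TXNIP protein, differed by -0.36 in PA HB (adjusted p = 0.28), and *NLRP3*, an inflammasome sensor that binds it, by 0.27 (adjusted p = 0.52).

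**Figure D5:**
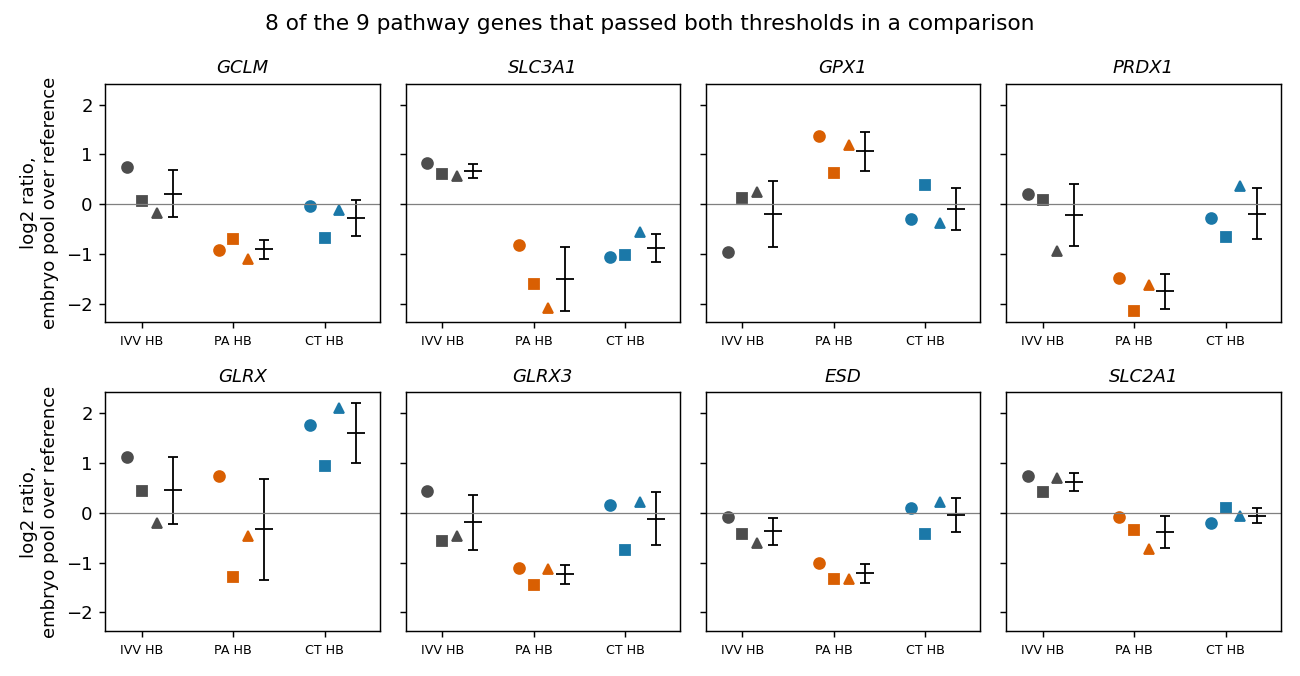
Log2 ratio of embryo pool over reference (vertical axis) on each of the 9 arrays, grouped by IVV HB, PA HB and CT HB (horizontal axis), for 8 of the 9 pathway genes called in a comparison (*GPX5* is left out because its probe has conflicting names). Shapes are the arrays of a group and bars mean ± SD (n = 3). PA HB lies below IVV HB for *GCLM*, *SLC3A1*, *PRDX1*, *GLRX3*, *ESD* and *SLC2A1* and above it for *GPX1*. The CT HB points overlap those of IVV HB for all genes shown except *SLC3A1* and *SLC2A1*, where they lie below.

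In the remaining lists 0 genes were called by limma in any comparison on the deposited values with the probes of a gene averaged. Under scale normalization 5 of them were called in PA HB against IVV HB, namely *SOD1* (1.97, adjusted p = 0.0072), *ME1* (1.07, adjusted p = 0.029), *NNT* (1.01, adjusted p = 0.027), *EIF2AK4* (1.03, adjusted p = 0.0096) and *ASNS* (1.28, adjusted p = 0.042), and *SOD1* was also called in CT HB against PA HB (-1.65, adjusted p = 0.015). All 5 read below the reference on every array, as did *CDO1*, *GPX3* and *GSR*. Scale normalization multiplies the ratios of an array by a common factor, which moves ratios on the wider PA HB arrays toward the reference level. The part of this in the gained calls was not tested. For superoxide and peroxide removal, 3 of 4 genes were measured, with 2 at an unadjusted p below 0.05 in PA HB against IVV HB, 0 in CT HB against IVV HB and 2 in CT HB against PA HB. *SOD1*, the cytosolic superoxide dismutase, differed by 0.92 in PA HB (adjusted p = 0.035, short of 2-fold), and *CAT*, catalase, by 0.06 (adjusted p = 0.83). *SOD2*, the mitochondrial superoxide dismutase, was 0.80 higher in CT HB than in PA HB (adjusted p = 0.025, short of 2-fold). For NADPH supply, with 6 of 9 measured, 1, 2 and 0 genes had an unadjusted p below 0.05 in PA HB against IVV HB, CT HB against IVV HB and CT HB against PA HB. *ME1*, malic enzyme, differed by 0.97 in CT HB against IVV HB (adjusted p = 0.062). The 4 measured genes of 10 of the NRF2 pathway, the main inducer of glutathione genes, had 0 at an unadjusted p below 0.05 in each comparison, and *NFE2L2* itself differed by -0.08 in PA HB (adjusted p = 0.83) and 0.11 in CT HB (adjusted p = 0.90). Its 3 probes differed from IVV HB by -0.48, -0.08 and 0.32 in PA HB and by -0.12, 0.46 and 0.00 in CT HB. The 4 probes of *SQSTM1*, in the same list, disagreed. They differed from IVV HB by 0.61, 0.66, 0.22 and -0.51 in PA HB and by 0.13, 0.90, 0.58 and -0.35 in CT HB. Fitted alone, the second probe had an adjusted p of 0.028 in PA HB and 0.043 in CT HB, short of 2-fold. The ATF4 pathway, which induces *CTH* when amino acids run short, had 12 of 16 genes measured, with 2, 1 and 3 at an unadjusted p below 0.05. *ATF4* differed by -0.30 in PA HB (adjusted p = 0.34) and 0.21 in CT HB (adjusted p = 0.78), and by 0.52 between CT HB and PA HB (adjusted p = 0.11). Its 4 probes disagreed, with differences of -0.12, 0.41, -0.82 and -0.68 in PA HB against IVV HB. In CT HB against PA HB they differed by 0.16, -0.59, 1.36 and 1.13. Fitted alone, the probes at 1.36 and 1.13 had adjusted p of 0.032 and 0.012 and passed 2-fold. The *ATF4* target *ASNS*, asparagine synthetase, differed by 0.10 in PA HB (adjusted p = 0.89) and 0.99 in CT HB (adjusted p = 0.31). The PA HB difference of *ASNS* has no settled direction, since it was -0.34 after quantile normalization (adjusted p = 0.73).

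The list genes called in PA HB were measured on arrays that also differed in markers of cell types. Of 12 measured oocyte markers of 13, 6 were higher and 0 lower in PA HB than in IVV HB (4.34% and 3.38% over all genes), 9 were lower when CT HB was set against PA HB (4.83% over all genes), and 0 were called in CT HB against IVV HB by limma, with 1 at an unadjusted p below 0.05. *GDF9*, an oocyte growth factor, read -2.92, -2.04 and -2.05 in IVV HB and -1.47, -0.99 and -0.89 in PA HB. Among markers of other types, *GATA6*, a hypoblast factor (2.06, adjusted p = 0.0017), *KRT8*, a trophectoderm keratin (1.09, adjusted p = 0.020), and *VIM*, vimentin of fibroblasts (1.21, adjusted p = 0.020), exceeded IVV HB in PA HB, and the keratin *KRT18* was lower there (-1.12, adjusted p = 0.0069). These were 1 of 3 measured markers of the inner cell mass and hypoblast, 2 of 10 of trophectoderm and 1 of 5 of fibroblasts. The other fibroblast markers did not follow *VIM*, with *COL1A1* at 0.06, *COL1A2* at 0.17, *POSTN* at -0.01 and *DCN* at -0.49. For *KRT8* the paper reported the opposite direction by quantitative PCR, lower in PA HB. The part of these markers, and of the wider spread of the PA HB arrays, in the calls of the pathway genes was not tested.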

How the data were processed

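RNA of 9 pools of 5 hatched blastocysts was amplified by T7 transcription, labelled and hybridised with a common reference on a porcine embryo array. The authors subtracted the background and applied global loess within each array in FlexArray. The deposited values are log2 ratios for 23971 probes, with 0 missing. Neither log base nor direction stands beside them: both were read from the values, the dyes and the oocyte markers, which lie below 0. No filter on positive spots was used.

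The platform annotation names 1 gene for 10344 probes (43.2%) and none for 13627. The table of RefSeq genes (Sscrofa11.1) was used for names only, renamed 201 probes and found 1567 of 2748 accessions. The probes of *GSS*, *CTH* and *TXNIP* carry no accession and were matched by symbol. Probes of a gene were averaged, giving 7495 genes.

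A limma model (version 3.58.1, R 4.3.3) took the 9 arrays with a mean per group (prior of 5.47 degrees of freedom beside 6 residual), with two-sided p-values adjusted by Benjamini-Hochberg over all genes. Calls needed an adjusted p no higher than 0.05 and a change of at least 2-fold, the study's thresholds. Since separate collections are not stated, p-values reflect only how these pools vary. The fit was also run on simulated data. Those values were drawn independently for each gene and array, without the wider spread of PA HB arrays, so nothing is read from them.

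The members and lists were chosen with earlier results of these data known. Named genes are *GSS*, *CTH* and *TXNIP*, every list gene called, up to 4 genes per list with the smallest adjusted p in a comparison, and the 5 genes most like each member by Pearson's r. *GSR*, *TXNRD1*, *MLX* and *PRDX3* fall outside the rule and were added after their values were seen, the last for its probes and the others for their role. Alternatives were the arrays in the fit, a replicate block, median centring, quantile and scale normalization, the median of probes, single probes, removal of the 25% least variable genes, a robust prior, no fold threshold, and leaving out each array.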

Additional observations from a re-analysis of the deposited data

Results flagged for a closer look

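*GPX5*, annotated as an epididymal glutathione peroxidase, differed from IVV HB in opposite directions in the other groups. Its ratios were 1.03, 0.33 and 0.49 in IVV HB, 0.15, 0.16 and 0.07 in PA HB and 1.50, 1.15 and 1.32 in CT HB, so that all CT HB arrays were above and all PA HB arrays below the IVV HB arrays. The log2 difference between CT HB and PA HB was 1.19 (SE 0.20, adjusted p = 0.0054 in limma), and the call was kept under all 17 alternatives tried for single genes, with adjusted p of up to 0.034. Against IVV HB the differences were -0.48 (adjusted p = 0.13) and 0.71 (adjusted p = 0.16). The accession of its probe belongs to *GULO* in the RefSeq table, so which transcript it measures is unsettled.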

How the results depend on the processing

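No difference of *GSS*, *CTH* or *TXNIP* changed sign when scaling was changed. Probe handling could not change them, since each gene has 1 probe. For other named genes 2939 values stayed on their side of the threshold, 51 lost the call and 37 gained it. No called difference changed sign, whereas 105 of the 2939 did, all of differences not called and at most 0.33 in size on the deposited values. In PA HB against IVV HB, 578 genes were called, and 316 after quantile normalization, 1040 with no fold threshold and 911 with single probes. In CT HB against IVV HB, 49 were called, and 130 after quantile and 100 after scale normalization, 76 without the least variable genes and 82 with single probes. For CT HB against PA HB the count was 583, and 371 after quantile normalization and 1081 with no fold threshold. Pathway list calls in PA HB against IVV HB went from 6 to 13 (scale normalization), 11 (no fold threshold) and 10 (single probes). Those in CT HB against IVV HB went from 1 to 2 after quantile or scale normalization, without the least variable genes and with single probes, and in CT HB against PA HB from 6 to 10 (no fold threshold) and 11 (single probes). Of 13 list calls, 2 were kept under all 17 alternatives tried for single genes.

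For *GSS*, PA HB minus IVV HB went from 1.08 to 0.77 after quantile and 0.77 after scale normalization, CT HB minus IVV HB from 1.71 to 2.25 after quantile normalization, and CT HB minus PA HB from 0.63 to 1.48 and 1.16. For *TXNIP*, CT HB minus IVV HB went from 2.12 to 2.72 after quantile normalization, and CT HB minus PA HB from 0.81 to 1.59 and 1.30. The cause was not tested.

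With 1 array left out, calls over all genes ranged from 273 (without IVV HB array 1) to 755 (without PA HB array 1) in PA HB against IVV HB, from 20 (without CT HB array 3) to 73 (without PA HB array 1) in CT HB against IVV HB and from 326 (without CT HB array 3) to 790 (without PA HB array 1) in CT HB against PA HB. List calls ranged from 1 (without IVV HB array 1) to 8, from 0 (without IVV HB array 1) to 2 and from 2 (without CT HB array 3) to 8. In the same order of comparisons, *GSS* ranged from 0.90 to 1.17, 1.59 to 1.85 and 0.51 to 0.81, *TXNIP* from 1.04 to 1.49, 1.99 to 2.34 and 0.62 to 1.08, and *CTH* from -2.53 to -1.27, -0.03 to 1.22 and 2.18 to 2.83.

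Whether replicate numbers pair the arrays is not settled. Deviations from group means had r of -0.13 to 0.33 between arrays of the same number (9 pairs, median 0.12). Between others r was -0.44 to 0.28 (18 pairs, median -0.08). IVV HB array 1 correlated best with CT HB array 1 and IVV HB array 2 with CT HB array 2, but IVV HB array 3 also did so with CT HB array 2. With the replicate number as a block, 616 genes were called in PA HB against IVV HB (578 without it), and list calls were 7 there and 2 in CT HB against IVV HB. The differences of *GSS*, *CTH* and *TXNIP* were as without it, which is fixed in advance because every group holds each replicate number once. Ratios without spot intensities do not show which probes lay near background.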
